A study of Homo sapiens with 6 samples.

Results

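The cell's oxygen response runs through the hypoxia-inducible factors (HIFs), and 10 genes that encode their subunits and regulators were examined among the 60708 genes counted. They were chosen by name: VHL, the α subunit genes HIF1A, EPAS1 and HIF3A, the partner genes ARNT and ARNT2, the prolyl hydroxylase genes EGLN1, EGLN2 and EGLN3, and the asparaginyl hydroxylase gene HIF1AN. The samples were Caki-1 cells, a human clear cell renal carcinoma line with wild-type VHL. In 3 samples (VC) the cells were vector controls, and in 3 samples (VHL-KO) VHL had been targeted with a lenti-CRISPR vector and guide RNA. Which vector these VC cells carried is not spelled out in the study's methods. VHL-KO Caki-1 cells were grown from single clones screened by immunoblot, so the edit and the choice of clone cannot be told apart. Gene counts summed to between 22628246 and 34881739 per sample.

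As background, HIFs are dimers of an oxygen-labile α subunit and a stable ARNT (HIF-1β) partner that bind DNA at short motifs and activate genes of glycolysis, angiogenesis and pH control. In oxygen, EGLN enzymes hydroxylate prolines of the α subunits, the VHL protein recognises the hydroxylated form, and its ubiquitin ligase marks the subunit for the proteasome. HIF1AN (FIH) hydroxylates an asparagine that the coactivators p300 and CBP would otherwise contact. VHL is the gene most often inactivated in clear cell renal carcinoma. This control acts on proteins, whereas the values here are mRNA. By immunoblot, the study reported that HIF-1α and HIF-2α proteins accumulated in VHL-KO Caki-1 cells.

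Markers were read first as a check of the cells. Of 14 markers of kidney epithelium and clear cell carcinoma, 11 passed the filter of at least 10 reads in any sample. VIM was the most abundant, PAX8, KRT8 and KRT18 were counted in every sample, and PAX2 and LRP2 stood at 0. The summed level of the list was 8022, 8970 and 7774 CPM in VC against 9143, 8569 and 8873 CPM in VHL-KO samples, where CPM is the count per 1000000 counts after scaling by the TMM factors of edgeR. VIM dominates that sum and did not pass the test described below (log2 fold change -0.07). Of the 11 tested markers, 8 were higher and 1 was lower, against 28.5% and 31.2% of all tested genes. CA9, among the 8, met the filter only through the VHL-KO samples. The transcription factor gene PAX8 rose from a mean of 428 to 614 CPM (log2 fold change 0.52). In no sample did 6 of 8 leukocyte, 5 of 6 endothelial and 4 of 8 fibroblast markers reach 10 counts, and CD3D, CD3E, TEK, CLDN5, COL3A1 and LUM stood at 0 throughout. CD14 of the leukocyte list rose (log2 fold change 1.47), while ITGAM of the same list did not pass (-0.70). PECAM1 of the endothelial list had 1, 5 and 0 counts in VC against 14, 7 and 9 counts in VHL-KO samples. It met the filter only through VHL-KO replicate 1, so its higher value is not read as a result. KDR of that list had 4, 0 and 9 against 0, 0 and 0 counts and was below the filter. The summed fibroblast list was 56.3 to 67.6 CPM in VC against 83.8 to 95.5 CPM in VHL-KO samples. ACTA2, its most abundant gene over all samples, rose from 20.5 to 61.4 CPM, while COL1A1 (33.7 to 25.2 CPM) and PDGFRB (8.90 to 2.32 CPM) fell. The part of these genes in the results was not tested.

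The comparison asked how VHL-KO differed from VC cells. All 10 genes passed the filter. By the quasi-likelihood F test of edgeR, with p adjusted over 17401 genes by the Benjamini-Hochberg method, HIF3A and HIF1AN were higher and VHL, HIF1A, EPAS1, EGLN1 and EGLN3 were lower in VHL-KO cells at an adjusted p under 0.05. ARNT, ARNT2 and EGLN2 did not pass. Of all tested genes, 59.7% passed, 28.5% as higher and 31.2% as lower, so 7 of 10 passing is near the background and is no result about these genes. The groups did not overlap for 8 of the 10 genes, against 64.7% of all tested genes. Higher calls made up 47.7% of all calls, 35.8% when libraries were scaled by total count alone and 55.03% with upper quartile factors. Scaling by total count moved the median log2 fold change over all tested genes by -0.19 and upper quartile scaling by 0.11, from -0.01. Under these scalings ARNT and EGLN2 changed sign with upper quartile factors (0.06 and 0.04), while the other 8 genes kept their direction.

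**Figure D1:**
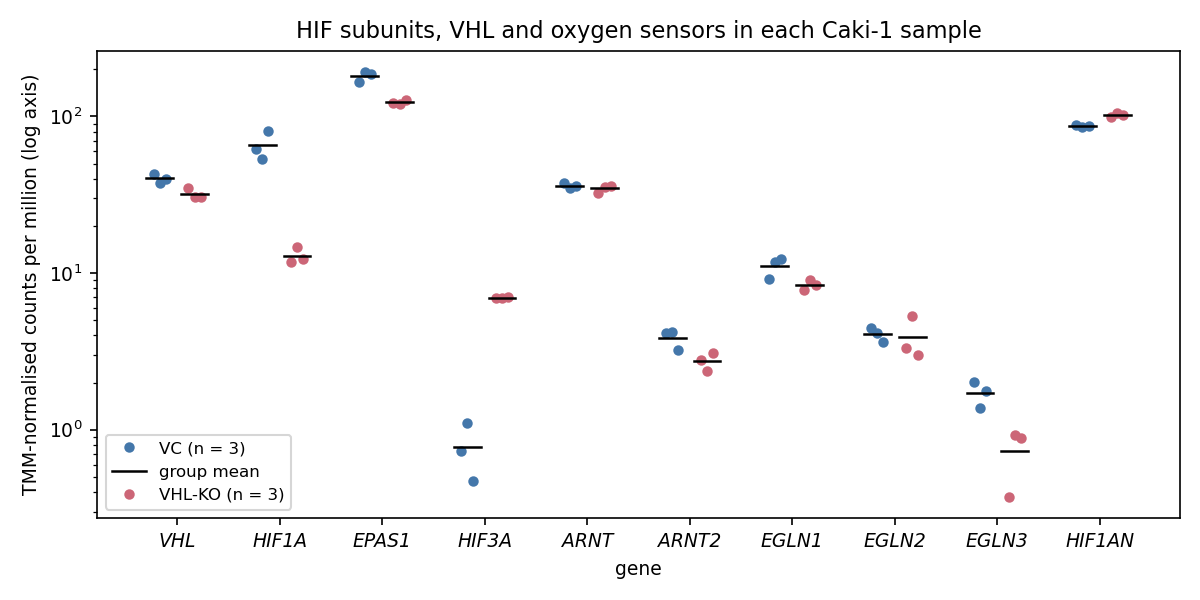
TMM-normalised CPM (log axis) of the 10 genes in each VC and VHL-KO sample. Points are samples and black lines are group means of 3 samples. HIF1A points of the groups are far apart, with means of 65.7 and 12.9 CPM, and HIF3A points lie the other way, with means of 0.772 and 6.97 CPM.

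VHL, the substrate-recognition subunit and the edited gene, lies at chr3:10141778-10153667 on the plus strand of GRCh38. It had 42.6, 37.8 and 40.1 CPM in VC against 34.8, 30.4 and 30.5 CPM in VHL-KO samples. Every VHL-KO sample was below every VC sample, yet VHL mRNA was present throughout. Counts over a whole gene do not show a small insertion or deletion, so these values do not check the edit itself. The log2 fold change was -0.33 (SE 0.11, adjusted p = 0.0109, edgeR). The call was lost without VC replicate 1 (-0.28, adjusted p = 0.0862), without VHL-KO replicate 2 (-0.30, adjusted p = 0.0621) and with upper quartile factors (-0.22, adjusted p = 0.0905). It was also lost after each library's trend with GC content and length was removed (-0.13, adjusted p = 0.177, edgeR). Fold changes followed GC content across all genes, with a median log2 fold change of -0.35 at 35% to 45% GC, 0.03 at 45% to 55% and 0.59 at 65% or more. The longest VHL transcript holds 46.6% GC, near the lower edge of the range with the median of 0.03. Removal of GC and of length one at a time was not tested. In bulk RNA, fewer cells with a transcript and less of it per cell cannot be told apart.

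The genes of the 3 α subunits moved in different directions. Their upstream sequences are shown because HIF1A and HIF3A changed most of the 10 genes and because HIF dimers bind a short motif. The windows are the 250 bases before the RefSeq start sites (GRCh38.p14) of HIF1A (chr14:61695263-61695512, plus strand), EPAS1 (chr2:46297157-46297406, plus strand) and HIF3A (chr19:46296792-46297041, plus strand). Capitals mark ACGTG or GCGTG on either strand, the core letters of the HIF motif.
HIF1A: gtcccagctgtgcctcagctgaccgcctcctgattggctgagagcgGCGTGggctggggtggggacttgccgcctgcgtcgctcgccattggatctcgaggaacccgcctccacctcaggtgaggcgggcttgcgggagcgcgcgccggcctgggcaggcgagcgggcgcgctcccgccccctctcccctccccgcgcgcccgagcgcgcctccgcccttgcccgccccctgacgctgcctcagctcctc
EPAS1: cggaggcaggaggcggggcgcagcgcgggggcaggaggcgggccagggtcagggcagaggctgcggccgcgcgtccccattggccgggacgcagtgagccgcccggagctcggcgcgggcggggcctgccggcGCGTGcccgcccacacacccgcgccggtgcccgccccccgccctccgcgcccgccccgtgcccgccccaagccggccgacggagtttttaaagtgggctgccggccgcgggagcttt
HIF3A: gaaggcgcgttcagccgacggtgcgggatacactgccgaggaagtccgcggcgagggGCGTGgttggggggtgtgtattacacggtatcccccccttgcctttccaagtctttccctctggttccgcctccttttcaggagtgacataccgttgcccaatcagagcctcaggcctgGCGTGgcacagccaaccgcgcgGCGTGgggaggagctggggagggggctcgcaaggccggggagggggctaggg

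GCGTG stood once in the HIF1A window, once in the EPAS1 window and 3 times in the HIF3A window. The windows shown are those that overlap no annotated exon, and the other HIF1A window and the other 2 HIF3A windows, before later start sites, held neither letter group. The EPAS1 window is not at the annotated gene start but inside the gene, which begins at chr2:46293667. One of the letter groups was present in 43.2% of the 35116 promoter windows of this length in RefSeq, ACGTG in 18.5% and GCGTG in 32.2%. Windows were matched for 8 of the 10 genes, all but VHL and ARNT2. Of their 12 windows, 5 held a match, in HIF1A, EPAS1, HIF3A, EGLN1 and EGLN2. A match is a description of the letters and not of binding.

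HIF1A encodes HIF-1α, the broadly expressed α subunit. It had 62.3, 53.5 and 81.1 CPM in VC samples and 11.8, 14.7 and 12.3 CPM in VHL-KO samples. The lowest VC sample was far above the highest VHL-KO sample, and VC replicates were more spread (65.7 ± 14.1 CPM, SD, n = 3) than VHL-KO replicates (12.9 ± 1.55 CPM, SD, n = 3). HIF1A fell 5.09-fold (log2 fold change -2.35, SE 0.14, adjusted p = 6.42e-13, edgeR). This was the largest fall among the 10 genes. The longest HIF1A transcript holds 36.4% GC, in the 35% to 45% range with a median log2 fold change of -0.35 over all genes. With GC and length offsets the HIF1A log2 fold change was -1.80 (adjusted p = 7.43e-13, edgeR).

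EPAS1 encodes HIF-2α, the α subunit most often linked to clear cell renal carcinoma. Its level was 166.5, 192.1 and 187.1 CPM in VC samples and 122.3, 120.5 and 126.7 CPM in VHL-KO samples. EPAS1 fell 1.48-fold (log2 fold change -0.56, SE 0.09, adjusted p = 8.36e-06, edgeR), with all VHL-KO samples below all VC samples. No other annotated gene shared its exons.

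HIF3A encodes an α subunit with several splice forms, some of which restrain the other HIFs. It had 25, 33 and 18 counts in VC samples and 184, 150 and 151 counts in VHL-KO samples. On the CPM scale this was 0.732, 1.11 and 0.474 against 6.89, 6.95 and 7.08. The VHL-KO samples were close to each other and all above VC. HIF3A rose 9.17-fold (log2 fold change 3.20, SE 0.25, adjusted p = 9.18e-11, edgeR), the largest change among the 10 genes. Counts per gene do not tell its splice forms apart.

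Shares within a sample need no scaling between libraries. They were not corrected for GC content, which is 36.4% for HIF1A and 52.6% for EPAS1. Counts were divided by the length of the gene's merged exons, and each gene's share of HIF1A, EPAS1 and HIF3A together was taken. EPAS1 made up 65.2%, 71.4% and 61.9% of α subunit mRNA in VC samples and 84.3%, 81.8% and 84.3% in VHL-KO samples. HIF1A went from 33.6% ± 4.96 to 12.4% ± 1.49 and HIF3A from 0.249% ± 0.112 to 4.12% ± 0.018 (SD, n = 3 each). EPAS1 was thus the most abundant α subunit mRNA in both groups although its own level fell. The difference in the EPAS1 share was 17.3 percentage points, with p = 0.1 in an exact two-sided permutation test, the smallest value that 3 against 3 samples allow. On undivided counts, 95% exact binomial (Clopper-Pearson) intervals for 1 sample had half-widths of at most 1.29 points for EPAS1, for counting error only. Summed per kilobase, the 3 genes reached 35.03, 36.87 and 41.46 CPM per kb in VC against 19.9, 20.2 and 20.6 CPM per kb in VHL-KO samples (exact two-sided permutation p = 0.1).

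**Figure D2:**
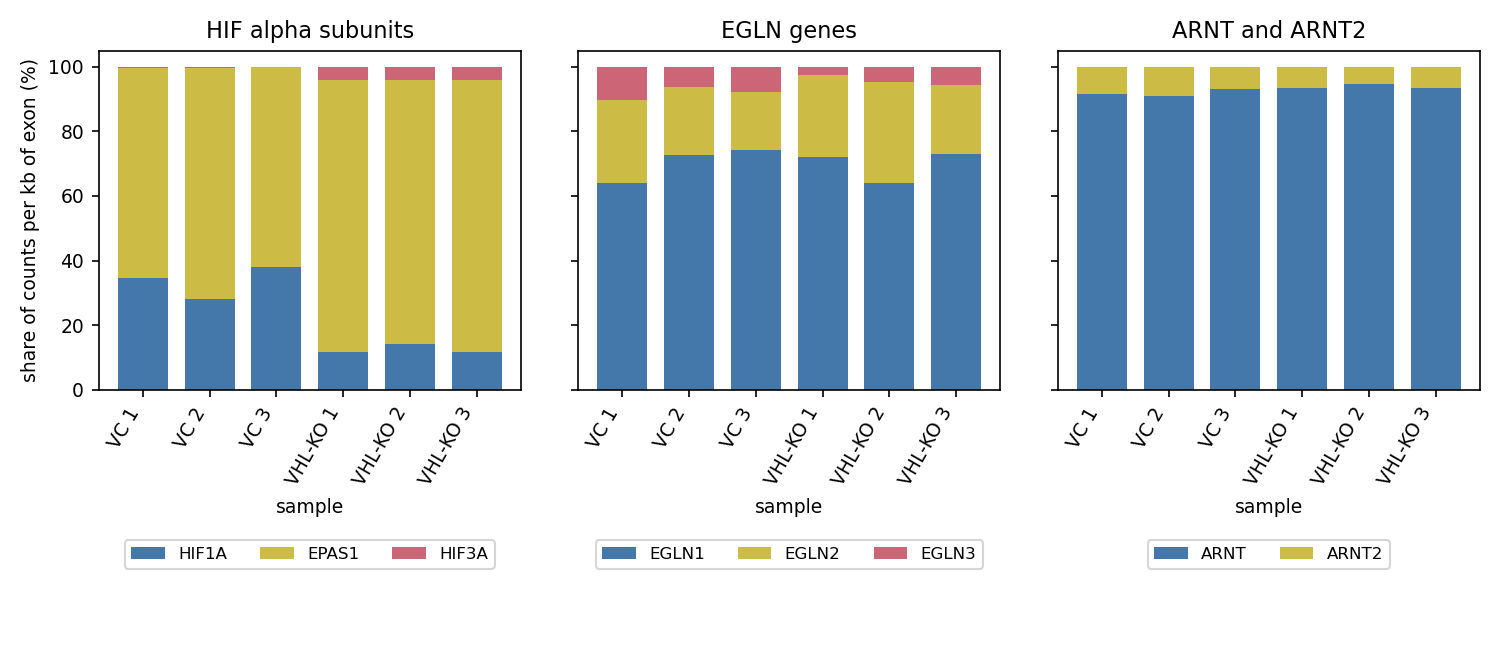
Share of each gene in its family per sample, in percent of counts per kb of exon, for the HIF α subunits (left), the EGLN genes (middle) and ARNT with ARNT2 (right). Bars are single samples and sum to 100%. The HIF1A part is larger in the VC samples (mean 33.6%) than in the VHL-KO samples (mean 12.4%).

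The HIF1A locus also holds antisense genes. HIF1A-AS3, a long non-coding RNA gene on the opposite strand that shares 299 exon bases with HIF1A, had 44, 22 and 46 counts in VC against 126, 104 and 123 counts in VHL-KO samples. HIF1A-AS3 rose 4.66-fold (log2 fold change 2.22, SE 0.24, edgeR), while HIF1A fell. HIF1A-AS1 had 17, 7 and 16 against 4, 8 and 15 counts and did not pass (adjusted p = 0.961, edgeR). ENSG00000258964, which shares 148 bases with HIF1A on the same strand, had 0 counts. Whether the counting used strand was not stated. Of 408 genes whose exons lay wholly inside opposite-strand exons of a gene with a mean of 100 counts or more, 155 had 0 counts, against 550 of 566 genes wholly inside same-strand exons. The shared bases were 11.3% of HIF1A exons.

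ARNT encodes the partner of all 3 α subunits, and ARNT2 a related partner best known in neurons and kidney. ARNT had 37.3, 34.7 and 36.0 CPM in VC samples and 32.6, 35.3 and 36.1 CPM in VHL-KO samples. The groups overlapped, and the log2 fold change was -0.06 (SE 0.11, adjusted p = 0.668, edgeR). ARNT2 was far less abundant, with 4.16, 4.21 and 3.24 CPM in VC against 2.81, 2.36 and 3.10 CPM in VHL-KO samples. Its groups did not overlap, and it narrowly missed the threshold (log2 fold change -0.49, SE 0.21, adjusted p = 0.0517, edgeR). ARNT2 passed with library size alone (-0.68, adjusted p = 0.00886), with GC and length offsets (-0.45, adjusted p = 0.0452), without VC replicate 3 (-0.58, adjusted p = 0.0327) and without VHL-KO replicate 3 (-0.57, adjusted p = 0.0423, edgeR). It did not pass with these offsets and the replicate block together (-0.45, adjusted p = 0.0542, edgeR). Its share of ARNT and ARNT2 mRNA was 8.5%, 9.17% and 6.99% in VC against 6.70%, 5.28% and 6.68% in VHL-KO samples. The difference of -2.0 percentage points had an exact two-sided permutation p of 0.1, the smallest possible. On undivided counts the difference was -2.33 points, and binomial half-widths for 1 sample were up to 1.89 points, for counting error only.

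The 3 EGLN genes encode the prolyl hydroxylases that sense oxygen for the α subunits. EGLN1 (PHD2), regarded as the main sensor in normal oxygen, is itself a known HIF target, as is EGLN3. The window before the EGLN1 start (chr1:231422288-231422537, minus strand, GRCh38.p14) is shown, the only EGLN window at an annotated gene start. The EGLN3 window (chr14:33951075-33951324, minus strand) overlaps an EGLN3 exon, held neither letter group and is not shown. The EGLN1 ACGTG, in capitals, begins at position -13 from the start.
EGLN1: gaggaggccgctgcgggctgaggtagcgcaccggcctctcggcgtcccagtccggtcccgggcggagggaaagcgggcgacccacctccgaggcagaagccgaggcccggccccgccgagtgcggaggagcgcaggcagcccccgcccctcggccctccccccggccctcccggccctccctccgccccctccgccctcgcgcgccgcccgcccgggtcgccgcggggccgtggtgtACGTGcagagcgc

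EGLN1 had 9.20, 11.7 and 12.3 CPM in VC samples and 7.75, 8.99 and 8.40 CPM in VHL-KO samples. The groups did not overlap but lay close together. EGLN1 was lower in VHL-KO cells (log2 fold change -0.41, SE 0.16, adjusted p = 0.0307, edgeR). The call was lost without VC replicate 2 (-0.35, adjusted p = 0.0702), VC replicate 3 (-0.31, adjusted p = 0.110), VHL-KO replicate 1 (-0.34, adjusted p = 0.120) or VHL-KO replicate 3 (-0.40, adjusted p = 0.0626, edgeR). It was also lost with upper quartile factors (-0.29, adjusted p = 0.110) and with GC and length offsets (-0.21, adjusted p = 0.183, edgeR). ENSG00000287856, a protein-coding gene annotated across EGLN1 on the same strand, covers 55.8% of EGLN1 exon bases and had 1 count in all. Reads in shared bases would be left uncounted by a counter that drops ambiguous reads, so the level of EGLN1 may be understated.

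EGLN2 (PHD1) had 4.48, 4.14 and 3.61 CPM in VC samples and 3.33, 5.33 and 3.00 CPM in VHL-KO samples. The groups overlapped, with VHL-KO replicate 2 the highest of all 6 samples (log2 fold change -0.07, SE 0.22, adjusted p = 0.794, edgeR). RAB4B-EGLN2, a readthrough gene that covers 30.6% of EGLN2 exon bases, and ENSG00000268797, which shares 119 bases with it, had 0 counts in every sample, so the same limit holds for EGLN2.

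EGLN3 (PHD3), which hypoxia induces in many cell types, was the least counted. It had 69, 41 and 67 counts in VC against 10, 20 and 19 counts in VHL-KO samples, or 2.02, 1.38 and 1.76 against 0.374, 0.927 and 0.891 CPM. All VHL-KO samples were below all VC samples. EGLN3 fell 2.40-fold (log2 fold change -1.26, SE 0.35, adjusted p = 0.00337, edgeR). Its exons were shared with no other annotated gene.

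Within the EGLN family, EGLN1 held most of the mRNA per kilobase in both groups, with 70.4% ± 5.50 in VC and 69.7% ± 4.90 in VHL-KO samples (SD, n = 3 each). The EGLN3 share was 10.3%, 6.25% and 7.80% in VC against 2.55%, 4.83% and 5.66% in VHL-KO samples. The groups did not overlap, and the difference of -3.77 percentage points had an exact two-sided permutation p of 0.1, the smallest possible. Its size depended on the length used. It was -6.53 points with the longest transcript and -1.93 points with exon bases shared with no other gene, an alternative chosen after seeing the data. On undivided counts the difference was -4.75 points, and binomial half-widths for 1 sample were up to 3.34 points for EGLN3, for counting error only.

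HIF1AN (FIH) was counted at 88.4, 85.8 and 86.8 CPM in VC samples and 98.5, 104.8 and 102.1 CPM in VHL-KO samples. The replicates were tight and the groups did not overlap. HIF1AN rose 1.17-fold (log2 fold change 0.23, SE 0.09, adjusted p = 0.0327, edgeR). The call was lost with library size alone (0.03, adjusted p = 0.747), with no filter beyond 1 count (0.19, adjusted p = 0.131), without VC replicate 1 (0.24, adjusted p = 0.0894), without VHL-KO replicate 2 (0.21, adjusted p = 0.123) and without VHL-KO replicate 3 (0.23, adjusted p = 0.0629, edgeR). The rise was larger with GC and length offsets (0.38, adjusted p = 2.34e-05) and with upper quartile factors (0.34, adjusted p = 0.00326, edgeR). NDUFB8, a gene of respiratory complex I on the opposite strand, shares 325 bases with HIF1AN. It had 102, 61 and 69 counts in VC against 316, 208 and 154 counts in VHL-KO samples. ENSG00000255339, which shares 31 bases, had 0 counts. The remaining overlaps were an antisense gene inside VHL exons, ENSG00000287086, with at most 2 counts in a sample, ENSG00000269124 at HIF3A with 0 counts, and MIR5572, ENSG00000259175, ENSG00000270919 and ENSG00000287813 at ARNT2 with at most 1 count.

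**Figure D3:**
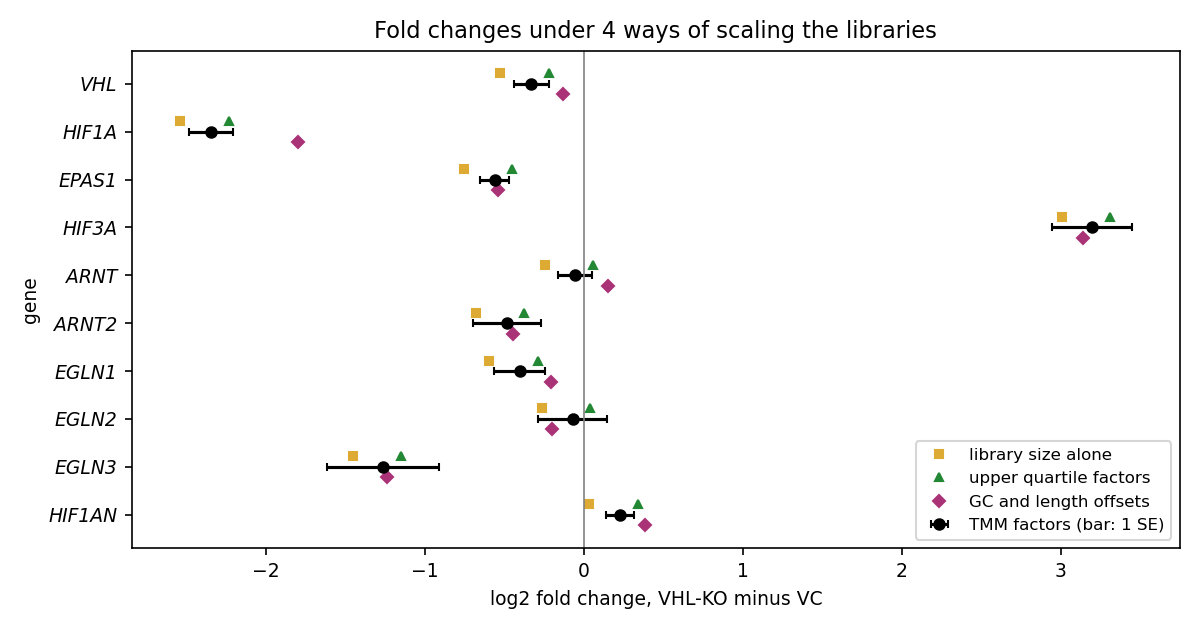
Log2 fold change (VHL-KO minus VC) of the 10 genes under 4 ways of scaling the libraries. Black points use TMM factors, with bars of 1 SE, and coloured points use library size alone, upper quartile factors or GC and length offsets. HIF1A lies between -2.54 and -1.80 and HIF3A between 3.01 and 3.31, whereas ARNT and EGLN2 lie on both sides of 0.

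Between genes, levels were compared as CPM per kb of merged exon. In VC cells the order was EPAS1 (24.95 ± 1.86), HIF1A (12.7 ± 2.73), VHL (8.03 ± 0.476), HIF1AN (6.26 ± 0.093), ARNT (5.58 ± 0.20), EGLN1 (2.06 ± 0.308), EGLN2 (0.620 ± 0.067), ARNT2 (0.50 ± 0.070), EGLN3 (0.234 ± 0.044) and HIF3A (0.092 ± 0.038; mean ± SD, n = 3). No neighbours in that order overlapped between samples. In VHL-KO cells EPAS1 remained first at 16.9 ± 0.443 CPM per kb, and HIF1A moved from the second to the fifth place at 2.51 ± 0.301 CPM per kb. HIF3A moved from the last to the seventh place at 0.833 ± 0.012 CPM per kb, ahead of EGLN2 (0.591 ± 0.192). EGLN3 was last at 0.099 ± 0.042 CPM per kb. With the length of the longest transcript, HIF1AN, ARNT and VHL overlapped as neighbours in VHL-KO cells, as did HIF3A with EGLN2, and EGLN3 with ARNT2 in VC cells, where ARNT (7.64) stood above HIF1AN (6.73 CPM per kb). With exon bases shared with no other gene, EGLN1 stood above HIF1A (3.52 against 2.83 CPM per kb) and VHL above HIF1AN (8.33 against 7.50 CPM per kb) in VHL-KO cells, where HIF3A and EGLN2 overlapped (0.861 against 0.852 CPM per kb).

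Other genes of the pathway were read from lists written by function. HIF target genes were mostly higher. Of 32, 31 were tested, 28 were higher and 2 lower in VHL-KO cells, against 28.5% and 31.2% of all tested genes, and the median log2 fold change was 1.41, against -0.01 for all tested genes. With at least 10 reads required in every sample, 27 targets were higher. CA9, a carbonic anhydrase marker of clear cell carcinoma, had 2 counts in the VC samples together and 768 in the VHL-KO samples. It met the filter only through the VHL-KO samples, so its higher value is not read as a result. Its normalised ratio was 562, with a 95% counting interval of 155 to 4646, and 35.7% of its exon bases lie opposite another gene. NDRG1, a stress-induced growth regulator, rose 65.3-fold (11.7 ± 0.481 to 761 ± 28.5 CPM). CXCR4, a chemokine receptor gene, rose 16.4-fold (1.64 ± 0.260 to 27.2 ± 2.90 CPM, SD, n = 3 each). PFKFB3, a regulator of glycolysis, was among the genes that fell (log2 fold change -0.43, SE 0.09). HK2 did not pass (0.09, adjusted p = 0.523, edgeR), and EPO was below the filter. EGLN3, described above, was thus lower in samples where 28 of 31 tested HIF targets were higher, and the call of EGLN1 as lower was held in 9 of 16 fits.

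**Figure D4:**
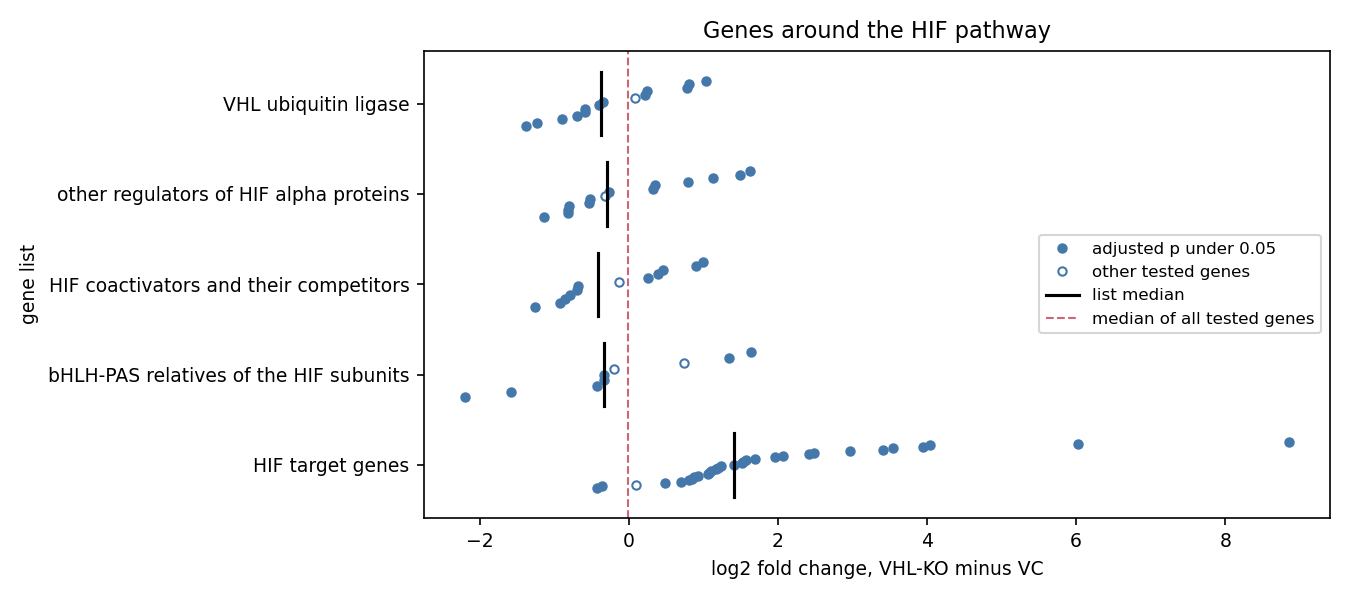
Log2 fold change (VHL-KO minus VC) of every tested gene in 5 lists. Filled points have an adjusted p under 0.05 by edgeR, black lines are list medians and the dashed line is the median of all tested genes (-0.01). The HIF target list has a median of 1.41, and the other 4 lists have medians between -0.41 and -0.29.

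The VHL ubiquitin ligase list holds the partners of VHL, the machinery that attaches NEDD8 to its cullin and the enzymes that work with it or against it. All 14 genes were tested, and 5 were higher and 8 lower, against 28.5% and 31.2% of all tested genes (list median log2 fold change -0.37). CUL2, the cullin scaffold of the VHL ligase, fell 2.59-fold, from 81.5 ± 14.7 to 31.4 ± 1.51 CPM (SD, n = 3 each). UBE2D1, a ubiquitin-conjugating enzyme gene, fell by 1.23 and USP33, a deubiquitinase gene, fell by 0.89 on the log2 scale. ELOB, the elongin B subunit, rose 1.76-fold (137 ± 11.2 to 240 ± 29.7 CPM). NEDD8, whose product activates cullins, rose 2.05-fold, with 12.9% of its exon bases inside another gene. USP20, a deubiquitinase gene, rose 1.71-fold. The subunits of the ligase thus moved in both directions. The count of higher genes was 3 when VC replicate 1, VC replicate 3, VHL-KO replicate 1 or, in turn, VHL-KO replicate 3 was left out, and 3 with library size alone or no filter beyond 1 count. The count of lower genes was 5 with GC and length offsets.

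Among other regulators of HIF α proteins, 14 of 15 genes were tested, with 6 higher and 7 lower, against 28.5% and 31.2% of all tested genes (list median log2 fold change -0.29), and VHLL was below the filter. OS9, reported as a HIF-1α binding protein, rose 3.09-fold (183 ± 23.8 to 566 ± 9.64 CPM), with 23.9% of its exon bases inside other genes. P4HTM, a transmembrane prolyl hydroxylase related to the EGLN enzymes, rose 2.80-fold (13.1 ± 1.06 to 36.8 ± 3.93 CPM). FKBP8, an immunophilin that binds EGLN1, rose 2.19-fold. The chaperone genes HSP90AA1 and HSP90AB1, whose products stabilise HIF-1α, each fell 1.76-fold. Both have near-identical pseudogenes, and reads with several locations had been dropped, so their levels are uncertain. AMER1, a Wnt pathway scaffold gene, fell 2.20-fold.

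Among HIF coactivators and their competitors, 12 of 13 genes were tested, with 5 higher and 6 lower, against 28.5% and 31.2% of all tested genes (list median log2 fold change -0.41), and CITED1 was below the filter. CITED2, a HIF target whose product competes with HIF α subunits for p300 and CBP, rose 2.00-fold (131 ± 7.56 to 262 ± 11.2 CPM). CITED4, of the same family, rose 1.38-fold, and PKM, the pyruvate kinase gene, rose 1.87-fold (3905 ± 426 to 7315 ± 121 CPM). CDK8, a kinase of the Mediator complex, fell 2.39-fold. TRRAP, a scaffold of acetyltransferase complexes, fell 1.90-fold, and NCOA2, a coactivator gene, fell 1.81-fold. The count of higher genes was 2 with library size alone and 3 with GC and length offsets.

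The bHLH-PAS family shares its DNA-binding and dimerisation domains with the HIF subunits. Of 11 relatives, 9 were tested, with 2 higher and 5 lower, against 28.5% and 31.2% of all tested genes (list median log2 fold change -0.33), and NPAS4 and SIM2 were below the filter. AHR, the dioxin receptor that also pairs with ARNT, rose 2.54-fold (12.0 ± 1.36 to 30.5 ± 4.02 CPM), with 35.2% of its exon bases inside other genes. NPAS1 rose 3.12-fold from a low level (2.03 ± 0.280 to 6.32 ± 0.514 CPM). BMAL2, a partner of CLOCK in the circadian system, fell 2.97-fold (37.8 ± 8.15 to 12.7 ± 1.29 CPM), and its relative BMAL1 fell 1.35-fold. SIM1 fell 4.58-fold, from 1.92 ± 0.376 to 0.421 ± 0.308 CPM (SD, n = 3 each). The count of lower genes was 3 when VC replicate 1, VHL-KO replicate 1 or, in turn, VHL-KO replicate 3 was left out, 3 with at least 10 reads in every sample or GC and length offsets, and 2 with upper quartile factors.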

How the data were processed

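RNA-seq was run on 3 VC and 3 VHL-KO samples of Caki-1 cells, grouped by the genotype and replicate number in their labels. Per the study's methods, reads were trimmed with TrimGalore and Cutadapt, aligned with STAR to GRCh38.p13, kept where they had a single location, and counted per gene with HTSeq. The deposited values are raw read counts per gene, not normalized, as the authors made them. Tool versions, annotation release, counting mode and strandedness are not given in the sources used here, nor is it stated that replicates were separate cultures, so p-values measure only the spread between these samples. The samples held 31789923, 28463579 and 34881739 counts (VC 1 to 3) and 29139722, 22805385 and 22628246 counts (VHL-KO 1 to 3). A count of 0 allows up to 3 counts, or 0.079 to 0.141 CPM, for counting error only. No sample copied another, since pairs within groups differed beyond sampling noise (chi-square per degree of freedom of 6.43 to 35.3).

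VHL-KO was compared with VC in edgeR 4.0.16 under R 4.3.3 (TMM factors, quasi-likelihood F test, two-sided, Benjamini-Hochberg adjustment) on 17401 genes that reached 10 reads in some sample. SE is the absolute log2 fold change divided by the square root of F. Shares were compared with exact two-sided permutation tests in SciPy. Gene positions, merged exon lengths, GC contents and exon overlaps came from GENCODE release 44 on GRCh38, matched by Ensembl identifier, with bedtools 2.31.1. GC contents are those of the longest transcript of each gene. The procedure was tested on simulated data with known changes. Alternatives were DESeq2, other scalings, other filters, each replicate left out, the replicate number as a block, GC and length offsets (natural splines, 5 degrees of freedom), and other gene lengths.

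Genes named are the 10 genes, CITED2 and P4HTM, up to 3 rises and 3 falls of largest size per list among called genes without overlap between groups, every gene whose exons overlap those of the 10, and the 3 genes with profiles nearest to VHL, HIF1A, EPAS1 and EGLN3. HK2, the marker genes and the genes below the filter were named after their values were seen. Some genes that the rule gives are not reported here. The 10 genes and the lists were chosen with earlier results of these data known.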

Additional observations from a re-analysis of the deposited data

How the results depend on the processing

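HIF1A, EPAS1, HIF3A and EGLN3 kept their direction and their call in all 16 fits (log2 fold changes of -2.54 to -1.80, -0.76 to -0.45, 2.94 to 3.55 and -1.48 to -0.91). The number of genes called was 10394, and 9215 to 10501 under the alternatives. The cause of the following changes was not tested.

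With upper quartile factors VHL (-0.22) and EGLN1 (-0.29) lost their calls, ARNT (0.057) and EGLN2 (0.040) changed sign, and 3 of the 10 genes were lower. With library size alone ARNT2 was called (-0.68) and HIF1AN was not (0.034), leaving 1 gene higher, and with no filter beyond 1 count HIF1AN was not called (0.19), again leaving 1. GC and length offsets ended the calls of VHL (-0.13) and EGLN1 (-0.21), called ARNT2 (-0.45) and turned ARNT (0.15).

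With replicates left out in turn, values ranged from -0.39 to -0.28 for VHL, -0.58 to -0.39 for ARNT2, -0.52 to -0.31 for EGLN1, -0.36 to 0.082 for EGLN2 and 0.21 to 0.26 for HIF1AN, and 1 to 2 of the 10 genes were called higher.

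Samples of VC and VHL-KO with the same number were not treated as paired, and no label states pairing. Correlations of their deviations from the group means were 0.20, -0.10 and 0.079 over 10890 genes. VHL-KO replicates 1 and 3 correlated best with their own number, and replicate 2 with VC replicate 3 (0.077). These values do not decide whether the samples were paired. With the replicate block 10284 genes were called, 2 of the 10 genes higher and 5 lower. The block with GC and length offsets gave 3 lower, with VHL at -0.14, EGLN1 at -0.20 and ARNT at 0.15, and ARNT2 (-0.45) was not called.

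The difference in the EPAS1 share was 12.7 percentage points with raw counts. For the EGLN3 share it was -6.53 points with the longest transcript and -1.93 points with exon bases shared with no other gene, the latter chosen after seeing the data. Depth limits EGLN3, with 10 to 69 counts a sample, and HIF3A in VC samples, with 18 to 33.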

Other observations

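Genes whose profile over the 6 samples lay nearest to a HIF gene were found among 10890 genes that averaged 100 or more normalised counts, by the root mean square distance between log2 CPM values centred on each gene's own mean. Nearest to HIF1A were FIGNL1 (0.093), KIF11 (0.097) and CEP55 (0.109), with log2 fold changes of -2.27, -2.34 and -2.49. KIF11 encodes a mitotic kinesin, CEP55 a protein of the last step of cell division, and FIGNL1 an ATPase of DNA repair. Nearest to EGLN3 were PSTPIP2 (0.196), APC (0.205) and MTMR12 (0.227), with log2 fold changes of -1.34, -1.41 and -1.18. Near to EPAS1 were SYNJ2 (0.038) and OXNAD1 (0.046), and nearest to VHL were PANK2 (0.034), MBD5 (0.038) and CHEK2 (0.040). A near profile is a description of 6 samples in 2 groups and says nothing of shared control.

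CDH16, the kidney-specific cadherin gene among the epithelial markers, rose from 6.76 to 72.2 CPM (log2 fold change 3.42), while EPCAM fell from 1.33 to 0.491 CPM (-1.42). Both genes were chosen after their values were seen.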
